A study of Mus musculus with 6 samples.

Results

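The genes described here are 10 acyl-CoA synthetases and acyl-CoA thioesterases, Acsl1, Acsl3, Acsl4, Acsl5, Acsl6, Acot1, Acot2, Acot9, Acot11 and Acot13, out of 22942 genes in the tables. They were chosen by name. Each gene was represented by the RefSeq transcript with the highest mean over the 6 libraries. The libraries came from cultures of C3H-10T1/2, a mouse line of mesenchymal cells used as preadipocytes. Of these, 3 cultures received the solvent DMSO and 3 received 611 (Cpd A) at 4 uM, which inhibits LSD1, an enzyme that removes methyl groups from histones, and RNA was taken after 6 days of brown adipocyte differentiation. All 6 cultures were induced for 72 h in 10% serum with rosiglitazone and dexamethasone (each at 1 uM), indomethacin (125 uM), isobutylmethylxanthine (0.5 mM), T3 (1 nM) and insulin (20 nM), and then kept in rosiglitazone, T3 and insulin. Rosiglitazone activates PPARgamma, so the controls carry that stimulus too. The labels do not agree on whether 611 was given at seeding or 12 h after it. They put the induction 48 h after the treatment for all 6 cultures, so treatment began before induction. The design text calls the cultures biological triplicates, and p-values measure the spread between 3 cultures of 1 cell line in each group.

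A fatty acid must be joined to coenzyme A before a cell can oxidise it, store it or build it into membranes. Long-chain acyl-CoA synthetases, the Acsl enzymes, make that bond, and acyl-CoA thioesterases, the Acot enzymes, split it again. Members of each family sit on different membranes or in different compartments, so they feed separate pools of acyl-CoA. Acsl1 is the main synthetase of fat cells, and Acot11 was first described as a thioesterase induced in brown fat by cold. Acsl1, Acot1 and Acot2 are known targets of PPAR nuclear receptors.

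Library totals, read from the steps between low values, were 38800000 to 41200000, and each library listed 15732 to 16021 genes above 0. Values are RPKM, reads scaled by transcript length and by library total, so levels of different genes can be set side by side. Fold changes on the log2 scale are differences of log2(RPKM + 1), tested with limma across the 13829 genes that reached 0.1 RPKM in at least 3 libraries, and a call is a Benjamini-Hochberg adjusted p below 0.05. Of the markers of brown fat, Ucp1 was listed at 0 in all 6 libraries, while Cidea was at 61.7 ± 13.3 (SD, n = 3) in the DMSO cultures and 9.42 ± 0.840 (SD, n = 3) with 611. Cox8b at 28.1 ± 1.07, Cox7a1 at 8.60 ± 1.24 and Elovl3 at 151 ± 9.42 were also present in the DMSO cultures (SD, n = 3 each). Prdm16 at 0.338 ± 0.0193, Ppargc1a at 0.527 ± 0.0999 and Dio2 at 0.0231 ± 0.0131 were near silent there (SD, n = 3 each), so 4 of the 8 brown fat markers were low or at 0.

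Of the 10 genes, 9 passed the filter on low values and Acsl6 did not. Acsl1, Acsl3, Acot1, Acot2 and Acot13 fell with 611, Acsl5 rose, and Acsl4 and Acot9 did not pass the test. Acot11 was also called higher, but it met the filter only through the 611 libraries, where it was high, so its call is not read as a rise. Over all genes tested 17.7% were called lower and 41.6% higher, 59.4% in either direction. The 5 lower and 2 higher genes, Acot11 among the latter, stand beside those shares as a description only, since the filter fixed the direction of Acot11 and since the genes were chosen with earlier results of these data known. The median log2 fold change was -0.13 over the 9 genes and 0.10 over all genes tested. Scaling the libraries by the median of ratios moved the median of all genes by -0.11 on the log2 scale, to 0.00. After it 28.5% of all genes were called higher and 28.6% lower, and 7 of the family were lower and 1 higher. Either call was given to 57.1% of all genes after scaling. In 7 of the 9 tested genes the libraries of one group did not overlap those of the other, 5 lower and 2 higher with Acot11 counted, against 66.2% of all genes tested, 20.4% lower and 45.8% higher. The plot of RPKM by library shows each of these values.

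**Figure D1:**
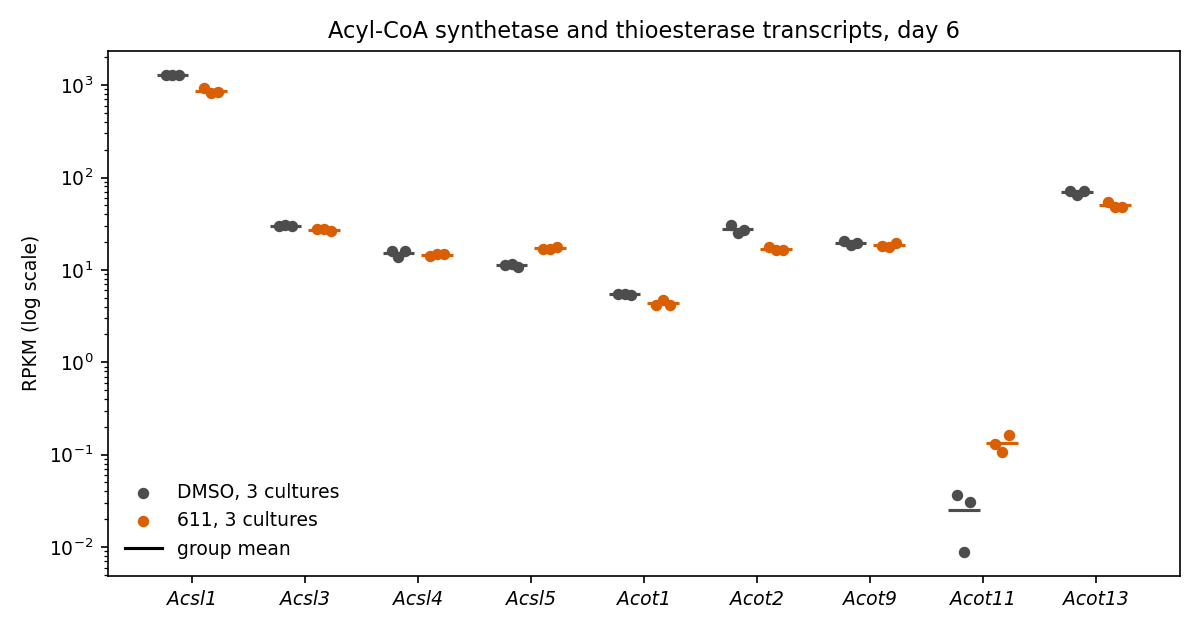
RPKM of 9 genes on a log axis, with 1 point per culture (grey DMSO, orange 611) and a bar at each group mean. Acsl1 stands far above the rest at 825 to 1299.7, Acsl5 is the gene above 1 RPKM whose 611 cultures all lie above the DMSO cultures, and Acsl6, listed at 0 in 5 of 6 libraries, is not drawn.

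Acsl1, which activates long-chain fatty acids at mitochondria and the endoplasmic reticulum, was at 1299.7, 1272 and 1289 RPKM in the DMSO cultures and at 922, 825 and 839 with 611. All 611 cultures lay below all DMSO cultures. The means were 1287 ± 13.7 and 862 ± 52.2 (SD, n = 3 each), a fall of 33.0% or 1.49-fold (log2 fold change -0.58, SE 0.056, limma Benjamini-Hochberg adjusted p = 3.2e-05). Acsl1 ranked 15 among all genes by mean RPKM in the DMSO cultures and 21 with 611, so it remained one of the most abundant transcripts of the cells after its fall.

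Acsl5, a synthetase of mitochondria and the endoplasmic reticulum that is best known from intestine and liver, moved the other way. Its values were 11.4, 11.7 and 10.7 RPKM with DMSO and 16.9, 16.8 and 17.7 with 611, with no overlap between the groups. The mean rose 1.52-fold from 11.2 ± 0.517 to 17.1 ± 0.477 (SD, n = 3 each; log2 fold change 0.57, SE 0.047, limma Benjamini-Hochberg adjusted p = 1.4e-05). After median-of-ratios scaling the log2 fold change was 0.43, still a call (limma Benjamini-Hochberg adjusted p = 6.77e-05).

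Acsl3, which works on the endoplasmic reticulum and on nascent lipid droplets, was at 29.6, 30.7 and 29.9 RPKM with DMSO and 27.8, 27.9 and 26.2 with 611. The groups did not overlap, but the change was small, from 30.1 ± 0.588 to 27.3 ± 0.942 (SD, n = 3 each), or 9.2% (log2 fold change -0.13, SE 0.040, limma Benjamini-Hochberg adjusted p = 0.0169). The call was lost without 611 replicate 3 (limma adjusted p = 0.0573) and without DMSO replicate 2 (limma adjusted p = 0.0556).

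Acsl4, which prefers arachidonic acid and other polyunsaturated fatty acids, was at 16.0, 13.9 and 16.1 RPKM with DMSO and 14.2, 14.7 and 14.8 with 611. DMSO replicate 2 was below all 3 of the 611 cultures, so the groups overlapped. The means of 15.4 ± 1.26 and 14.6 ± 0.341 (SD, n = 3 each) did not differ past the threshold (log2 fold change -0.07, SE 0.059, limma Benjamini-Hochberg adjusted p = 0.370). It was called lower after median-of-ratios scaling (log2 fold change -0.21, limma adjusted p = 0.0203) and without DMSO replicate 2 (log2 fold change -0.13, limma adjusted p = 0.0435).

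Acsl6, the synthetase of brain, was listed at 0 in all libraries but 611 replicate 1, where its highest transcript was at 0.0191 RPKM. At the reference length of 5804 bases that would be 4.53 reads, which is not a whole number. Acsl6 transcripts of 2594 and 5807 reference bases had the same 0.0189 RPKM there. The lengths behind the RPKM values are thus not all those of the reference, and the number of reads is not known. At 5804 bases 3 reads would be between 0.0126 and 0.0133 RPKM in these libraries, and more at a shorter length. The value is therefore not placed above that floor, which covers counting error only. Acsl6 was not tested, and a difference was not detectable at this depth.

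The tables list 3 transcripts each for Acsl3 and Acsl4 and 4 for Acsl6, and 1 for each of the other genes. The 3 Acsl3 transcripts had means between 28.8 and 30.1 RPKM with DMSO, and their ratios of 611 to DMSO were 0.901, 0.908 and 0.908. The Acsl4 transcripts had ratios between 0.950 and 0.955. How reads were divided among the transcripts of a gene is not known, so these are not separate measurements of isoforms. With the transcripts of each gene summed, 5 genes were again called lower and 2 higher.

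Within the Acsl family, Acsl1 made up a smaller share of the RNA with 611 and the other 3 expressed genes a larger one. Acsl1 held 95.8%, 95.8% and 95.8% of the summed RPKM of the 5 Acsl genes in the DMSO cultures and 94.0%, 93.3% and 93.5% with 611. The share of Acsl5 was 0.838%, 0.880% and 0.794% with DMSO and 1.72%, 1.90% and 1.97% with 611. Acsl3 went from 2.24% ± 0.0673 to 2.97% ± 0.167 and Acsl4 from 1.14% ± 0.0834 to 1.59% ± 0.122 (SD, n = 3 each), although neither gene rose in RPKM. The ratio of Acsl1 to Acsl5 was 114, 109 and 121 with DMSO and 54.5, 49.1 and 47.5 with 611, a ratio that library scaling cannot change. The summed RPKM of the family was 1344 ± 14.0 with DMSO and 921 ± 52.1 with 611. These shares are descriptions and were not tested.

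**Figure D2:**
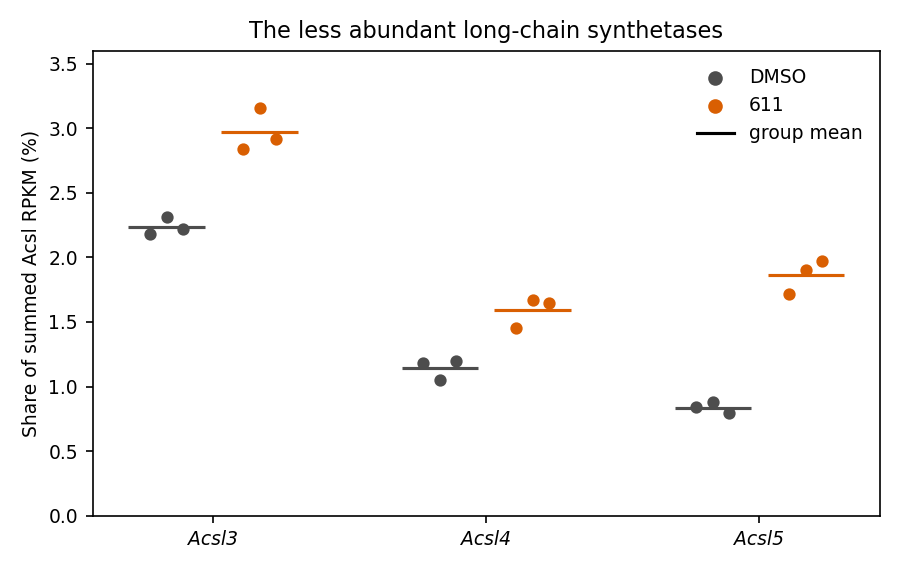
Share of Acsl3, Acsl4 and Acsl5 in the summed RPKM of the 5 Acsl genes, in percent, with 1 point per culture and a bar at each group mean. The 611 cultures lie above the DMSO cultures for each of the 3 genes, with the widest gap for Acsl5 (0.837% against 1.86%).

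The upstream bases of the most abundant gene that fell and of the one that rose are shown because the Acsl1 and Acsl5 transcripts moved in opposite directions. They are the 250 bases before annotated starts, from RefSeq on GRCm38.p6, a later build than the authors' mm9, and all are on the plus strand. Capitals mark CCAAT, the box bound by the factor NF-Y, on either strand. Acsl1 has 2 entries, and the tables, with 1 Acsl1 transcript, do not say which start was in use.
Acsl1 upstream start, chr8:46470787-46471036: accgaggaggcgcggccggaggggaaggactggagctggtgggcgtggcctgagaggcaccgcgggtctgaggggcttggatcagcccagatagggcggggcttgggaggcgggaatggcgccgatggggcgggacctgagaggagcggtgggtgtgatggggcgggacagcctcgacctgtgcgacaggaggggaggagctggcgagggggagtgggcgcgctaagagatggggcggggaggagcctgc
Acsl1 downstream start, chr8:46490716-46490965: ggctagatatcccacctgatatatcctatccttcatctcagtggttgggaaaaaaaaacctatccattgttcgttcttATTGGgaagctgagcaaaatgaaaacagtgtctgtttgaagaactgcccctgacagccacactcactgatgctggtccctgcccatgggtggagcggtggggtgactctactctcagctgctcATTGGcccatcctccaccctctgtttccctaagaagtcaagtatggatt
Acsl5, chr19:55253119-55253368: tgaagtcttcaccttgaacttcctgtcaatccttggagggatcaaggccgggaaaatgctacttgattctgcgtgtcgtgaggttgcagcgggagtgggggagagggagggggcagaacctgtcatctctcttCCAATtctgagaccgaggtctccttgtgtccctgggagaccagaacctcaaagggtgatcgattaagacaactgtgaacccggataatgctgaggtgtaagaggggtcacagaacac
The first Acsl1 window is 72.0% G and C, holds 4 matches to GGGCGG, the box of SP factors, and has no CCAAT. The second is 48.4% G and C with 2 CCAAT boxes and no GGGCGG. The Acsl5 window is 52.8% G and C with 1 CCAAT box and no GGGCGG.

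Among the thioesterases, Acot2, the enzyme of the mitochondrial matrix, was at 30.5, 25.2 and 27.3 RPKM with DMSO and 17.8, 16.5 and 16.4 with 611. Every 611 culture was below every DMSO culture. It fell by 39.0%, or 1.64-fold, from 27.7 ± 2.67 to 16.9 ± 0.809 (SD, n = 3 each; log2 fold change -0.68, SE 0.068, limma Benjamini-Hochberg adjusted p = 4.1e-05). Acot1, its cytosolic relative, was lower in level, at 5.53, 5.54 and 5.35 RPKM with DMSO and 4.14, 4.75 and 4.13 with 611. It fell 1.26-fold from 5.47 ± 0.110 to 4.34 ± 0.359 (SD, n = 3 each; log2 fold change -0.28, SE 0.063, limma Benjamini-Hochberg adjusted p = 0.00434). The groups did not overlap for Acot1 either, though 611 replicate 2 stood nearer to the DMSO cultures than the other two did. The ratio of Acot2 to Acot1 was 5.06 ± 0.483 with DMSO and 3.92 ± 0.425 with 611 (SD, n = 3 each), and the highest 611 ratio of 4.31 was below the lowest DMSO ratio of 4.55.

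Acot1 and Acot2 are neighbouring copies on chromosome 12 and are hard to tell apart by sequencing. Their coding sequences, of 1260 and 1362 bases in the GENCODE transcripts Acot1-201 and Acot2-201, are identical at 95.5% of the 1239 bases that align without a gap. Of the 2223 windows of 50 bases in the Acot1 transcript, 23.7% also occur in Acot2, and of the 2147 windows in Acot2 24.5% occur in Acot1. The longest run in common is 273 bases, and a read inside it fits both genes. That run is shown first, from coding bases 887 to 1159 of Acot1 and 1010 to 1282 of Acot2, all in lower case because the copies do not differ there. The 90 coding bases just before it were picked as the window of that length, without gaps, with the most differences. The copies differ there at 14 positions, which capitals mark. Stretches where the alignment has gaps were left out of this choice, and the copies may differ more there.
Acot1 and Acot2, shared run: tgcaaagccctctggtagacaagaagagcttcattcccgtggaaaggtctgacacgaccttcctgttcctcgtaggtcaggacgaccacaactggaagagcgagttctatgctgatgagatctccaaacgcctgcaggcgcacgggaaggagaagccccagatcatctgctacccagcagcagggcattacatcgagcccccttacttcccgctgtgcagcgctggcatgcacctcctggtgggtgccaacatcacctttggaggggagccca
Acot1, coding bases 797 to 886: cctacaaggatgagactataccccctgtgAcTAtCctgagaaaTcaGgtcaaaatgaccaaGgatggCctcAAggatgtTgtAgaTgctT
Acot2, coding bases 920 to 1009: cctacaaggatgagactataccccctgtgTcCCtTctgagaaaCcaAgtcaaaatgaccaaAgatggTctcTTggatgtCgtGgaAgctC
The sources used here do not give how reads fitting both were assigned, so the values of the pair are not fully separate measurements, and the part of shared reads in the fall of Acot1 was not tested. The other copies of this gene cluster were near 0: Acot4 was listed at 0 in all 6 libraries, and the highest mean among Acot3, Acot5 and Acot6 was 0.0879 RPKM, for Acot6 with DMSO.

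The 250 upstream bases of Acot2 and Acot1 are shown side by side, from RefSeq on GRCm38.p6, plus strand, with capitals on CCAAT and on TTGCNNAA, letters met in C/EBP sites, on either strand.
Acot2, chr12:83987611-83987860: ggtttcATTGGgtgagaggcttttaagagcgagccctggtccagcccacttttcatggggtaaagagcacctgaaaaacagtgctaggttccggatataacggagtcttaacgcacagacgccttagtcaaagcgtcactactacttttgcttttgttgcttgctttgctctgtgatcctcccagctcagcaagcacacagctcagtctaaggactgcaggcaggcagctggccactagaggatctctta
Acot1, chr12:84009252-84009501: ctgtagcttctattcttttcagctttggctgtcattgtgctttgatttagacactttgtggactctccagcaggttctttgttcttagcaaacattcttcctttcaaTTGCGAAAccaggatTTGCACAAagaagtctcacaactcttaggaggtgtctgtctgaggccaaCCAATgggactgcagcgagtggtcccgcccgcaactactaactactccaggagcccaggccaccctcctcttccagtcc
Acot1 has 2 matches to TTGCNNAA, 1 CCAAT box and 1 GGGCGG, and Acot2 has 1 CCAAT box and no TTGCNNAA. RefSeq upstream windows were found for 9 of the 10 genes, 13 windows in all, with none for Acot13. On either strand, CCAAT occurred in 9 of the 13 and in 33.8% of all 32851 windows, GGGCGG in 9 of the 13 and in 32.7%, and TTGCNNAA in 1 of the 13 and in 9.56%. AGGTCA, the core letters of sites of many nuclear receptors, was in 1 of the 13, an Acsl6 window, and in 14.0% of all. The direct repeat of AGGTCA with any 1 base between, read by PPAR with RXR and holding AGGTCA within it, was in none of the 13 and in 0.0335% of all. A match in these letters is not a bound site, and windows of this length leave out more distant elements.

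Acot13, a small thioesterase associated with mitochondria, was the most abundant of the 5 Acot genes described. Its values were 72.1, 64.5 and 71.0 RPKM with DMSO and 54.1, 48.1 and 48.2 with 611, again without overlap. It fell 1.38-fold from 69.2 ± 4.11 to 50.1 ± 3.46 (SD, n = 3 each; log2 fold change -0.46, SE 0.059, limma Benjamini-Hochberg adjusted p = 2.0e-04). Acot13 held 56.7% ± 0.745 of the summed RPKM of the 5 Acot genes with DMSO and 55.7% ± 1.52 with 611 (SD, n = 3 each), and the cultures of the groups overlapped, at 56.1% to 57.5% and 54.6% to 57.5%.

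Acot9, a mitochondrial thioesterase with a broad range of chain lengths, was at 20.4, 18.8 and 19.7 RPKM with DMSO and 18.0, 17.8 and 19.4 with 611. The groups overlapped, with 611 replicate 3 inside the DMSO range. The means of 19.6 ± 0.789 and 18.4 ± 0.885 (SD, n = 3 each) did not differ past the threshold (log2 fold change -0.09, SE 0.049, limma Benjamini-Hochberg adjusted p = 0.142). After median-of-ratios scaling Acot9 was called lower (log2 fold change -0.23, limma adjusted p = 0.00393). Its share of the summed Acot RPKM was 16.1% ± 0.338 with DMSO and 20.5% ± 1.45 with 611. Of the 50-base windows of the Acot9 transcript 20.2% also occur in its copy Acot10, which was listed at 0 except in 611 replicate 1, at 0.0159 RPKM.

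Acot11, the thioesterase known from cold-exposed brown fat, where it limits the oxidation of fatty acids, was near silent here. It was at 0.0363, 0.00888 and 0.0310 RPKM with DMSO and 0.130, 0.107 and 0.164 with 611. The steps between its values give 8, 2 and 7 reads with DMSO and 30, 25 and 38 with 611, at most 0.006 from whole numbers. The length was fitted to bring the counts near whole numbers, at 5673 bases against 5689 in the reference. That closeness is therefore not a separate check. At the reference length the counts were 8.02, 2.01 and 7.03 with DMSO and 30.1, 25.1 and 38.1 with 611. All 611 cultures were higher, and the means of 0.0254 ± 0.0146 and 0.134 ± 0.0286 (SD, n = 3 each) stand in a ratio of 5.26. The log2(RPKM + 1) scale shrinks this to a log2 fold change of 0.14 (SE 0.052, limma Benjamini-Hochberg adjusted p = 0.0398). All DMSO values were under the 0.1 RPKM of the filter and all 611 values above it, so the 611 cultures alone brought the gene into the test, and its p is not evidence of a rise. The call was lost with the replicate number as a block (limma adjusted p = 0.0541), after median-of-ratios scaling (limma adjusted p = 0.0534) and in 5 of the 6 fits that left out 1 culture, and adding 0.1 in place of 1 gave a log2 fold change of 0.90 (limma adjusted p = 0.0158).

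**Figure D3:**
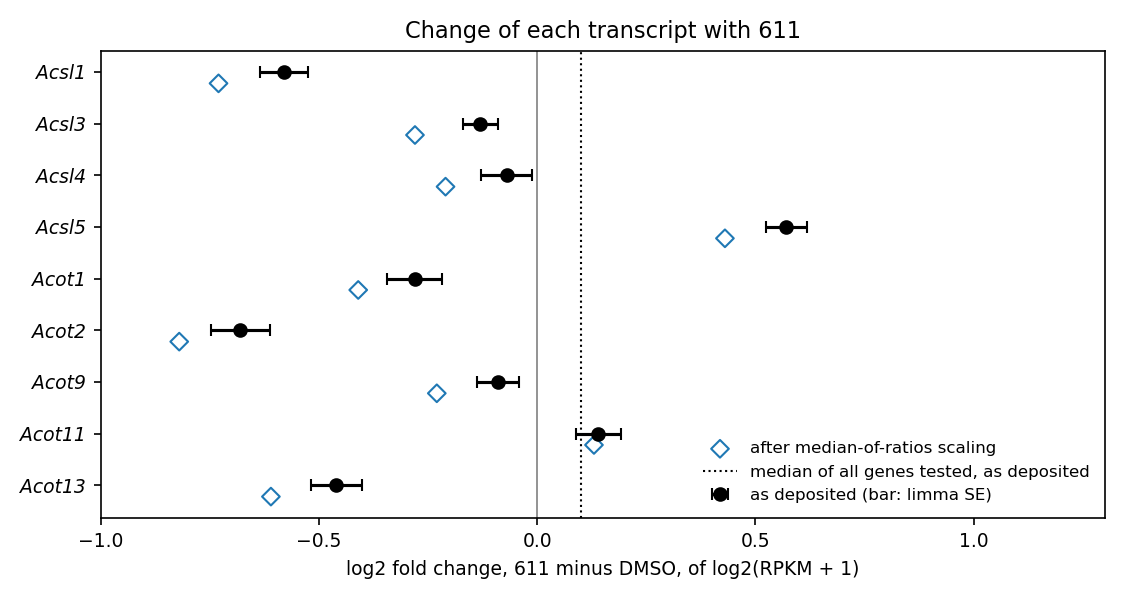
Log2 fold change of 9 genes, 611 minus DMSO, on log2(RPKM + 1). Black points with limma SE bars are the deposited values, blue diamonds the values after median-of-ratios scaling, and the dotted line the median of all genes tested at 0.10. Scaling moves the points to the left and changes no direction, with Acsl5 at 0.57 before and 0.43 after it.

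Set in order of level, the DMSO cultures ran from Acsl1 through Acot13, Acsl3, Acot2, Acot9, Acsl4, Acsl5 and Acot1 to Acot11 and Acsl6. In that order only Acsl3 and Acot2 overlapped as neighbours, at 29.6 to 30.7 and 25.2 to 30.5 RPKM. With 611 the first 3 genes kept their places, Acot9 had a higher mean than Acot2 with ranges that overlapped at 17.8 RPKM, and Acsl5 passed Acsl4, at 16.8 to 17.7 against 14.2 to 14.8 RPKM. Acsl5 and Acot2, the latter at 16.4 to 17.8, overlapped and could not be ordered. With DMSO every value of Acot2 had been above every value of Acsl5.

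The genes whose values over the 6 libraries lay nearest to those of Acsl5 and Acot2, the called genes with the largest rise and fall on log2(RPKM + 1), were found among the genes with a mean of at least 1 RPKM, by Euclidean distance of log2(RPKM + 1) centred on each gene's mean. For Acsl5 the nearest were Myl12a, a myosin light chain, Atl1, Rsu1 and Hs2st1, a heparan sulfate sulfotransferase. Rsu1 went from 27.9 ± 0.835 to 41.5 ± 0.529 RPKM and Myl12a from 84.3 ± 3.19 to 125 ± 3.48 (SD, n = 3 each). For Acot2 the nearest were a transcript without a symbol, Dhrs3, a retinal reductase, Cdpf1 and Ddit3, the stress-induced factor CHOP. Dhrs3 went from 41.5 ± 2.45 to 25.4 ± 1.54 RPKM and Ddit3 from 53.1 ± 5.06 to 34.2 ± 1.08 (SD, n = 3 each). The measure includes the difference between the groups itself.

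The rest of the acyl-CoA machinery was read from lists chosen by pathway, and is given by counts beside the 17.7% lower and 41.6% higher of all genes tested. Genes said to rise or fall passed the same limma threshold. Of the other acyl-CoA synthetases, 12 of 19 could be tested, of which 9 fell while 2 rose (median log2 fold change -0.45). The largest falls were those of Acsf2, a mitochondrial synthetase of the wider family, 2.53-fold from 31.9 ± 1.85 to 12.6 ± 1.67 RPKM, and of the medium-chain synthetases Acsm3, 1.98-fold to 2.38 ± 0.324, and Acsm5, 1.73-fold to 2.94 ± 0.239. The rises were those of Slc27a6, a fatty acid transport protein with synthetase activity, from 1.16 ± 0.299 to 3.36 ± 0.417, and of Acsbg1, a very long-chain synthetase, from 0.542 ± 0.0153 to 1.40 ± 0.194. Acsl5 was therefore not alone among the synthetases in rising, and both of these were at lower levels than Acsl5.

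Of 22 other thioesterases 13 could be tested, and 5 fell, 3 rose and 5 did not pass, with a median of -0.05. Hibch, the hydrolase of the valine pathway, fell 1.63-fold from 75.8 ± 3.91 to 46.6 ± 2.46 RPKM and the lysosomal thioesterase gene Ppt2 1.45-fold from 23.7 ± 2.03 to 16.4 ± 0.153. Mcat, also called lower, is a transacylase of mitochondrial fatty acid synthesis and not a thioesterase. The higher ones were Abhd17c, which removes palmitate from proteins, Acot7, a cytosolic thioesterase abundant in brain, and Ppt1, each by 1.13-fold to 1.20-fold. All 3 of these rises lost their call after median-of-ratios scaling.

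Oxidation and carnitine entry follow activation. Of 20 tested genes of acyl-CoA oxidation in mitochondria and peroxisomes, 19 fell and 0 rose (median log2 fold change -0.57). Hadhb, a thiolase subunit of mitochondrial oxidation, fell 1.97-fold, from 536 ± 11.5 to 271 ± 12.8 RPKM. For acyl-CoA binding and carnitine entry 9 of 13 fell and 2 rose (median -0.41). The carnitine palmitoyltransferase genes went apart: Cpt1b, the muscle and brown fat form, fell 2.09-fold from 14.4 ± 1.16 to 6.89 ± 0.643, while Cpt1a rose 1.57-fold from 18.8 ± 0.858 to 29.5 ± 1.06 and Cpt1c 2.29-fold from 2.42 ± 0.352 to 5.52 ± 0.620.

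For the making of glycerolipids and sterol esters, which uses acyl-CoA, 11 of 23 tested genes fell and 6 rose (median -0.13). Not every gene counted here acts on acyl-CoA: the phosphatase genes Lpin1, lower, and Lpin2 and Lpin3, higher, do not. Dgat2, which makes triglyceride, fell 2.04-fold from 258 ± 7.95 to 126 ± 12.1 RPKM, and the phosphatidate phosphatase gene Lpin1 fell 2.07-fold from 62.4 ± 1.61 to 30.1 ± 1.60. The rises included Lpcat1 and Lpcat4, which remodel phospholipids, at 2.10-fold and 2.42-fold. Of 11 tested genes of coenzyme A synthesis and turnover 8 fell and 0 rose (median -0.23), led by Nudt7, a peroxisomal hydrolase of coenzyme A, from 21.0 ± 4.68 to 6.51 ± 1.78.

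**Figure D4:**
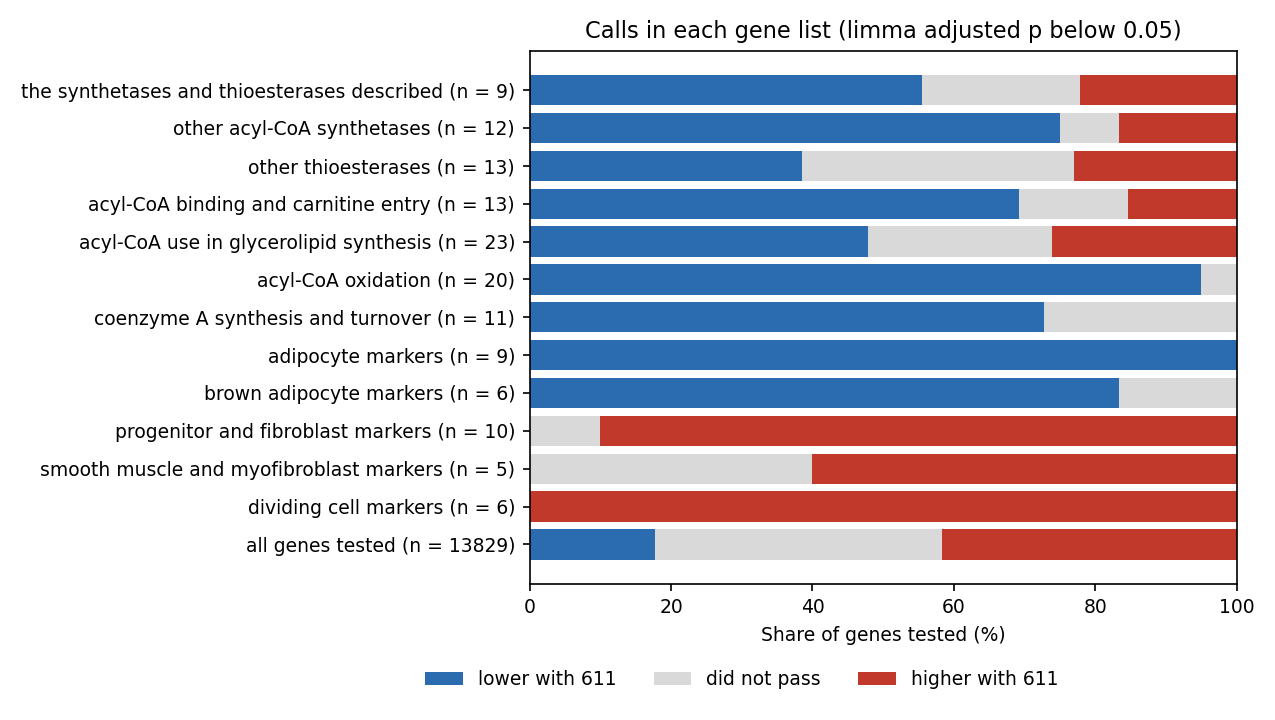
Share of tested genes called lower (blue), not called (grey) or higher (red) with 611 in each list, in percent, with the number tested in brackets. The 9 genes described and the pathways around them hold more blue than all 13829 genes tested, of which 17.7% were lower.

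Markers of cell state moved in the same libraries. All 9 tested adipocyte markers fell, and their summed RPKM ranged from 27977 to 29256 with DMSO and from 14344 to 15867 with 611. Of 10 tested progenitor and fibroblast markers 9 rose, with sums of 234 to 257 against 626 to 647, and all 6 markers of dividing cells rose, with sums of 71.4 to 72.9 against 165 to 187. Of 6 brown adipocyte markers tested 5 fell, with sums of 224 to 268 against 83.5 to 102. Of 5 smooth muscle and myofibroblast markers tested 3 rose, with sums of 53.7 to 55.2 against 127 to 141. Those 3 were Acta2, Cald1 and Tagln, and Acta2 and Cald1 make up most of the sum. Myh11 and Des did not pass, at 0.419 ± 0.0336 and 1.80 ± 0.156 RPKM with DMSO. With 611 they were at 0.328 ± 0.0397 and 1.58 ± 0.198 (SD, n = 3 each), and Cnn1 was too low to test. None of the macrophage and endothelial markers was high enough to test, with sums of at most 0.203 RPKM, and Ptprc, Cdh5 and Kdr at 0 throughout. In such bulk RNA fewer fat cells and less RNA per fat cell cannot be told apart, and the part of these shifts in the changes of the synthetases and thioesterases was not tested.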

How the data were processed

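Messenger RNA was sequenced from 6 cultures, 3 with DMSO and 3 with 611. For every library the authors deposited RPKM values of 28430 RefSeq transcripts, and TopHat2 2.0.12, TopHat, SAMtools and the build mm9 were used, per the submitters' processing notes. The library kit marks strand, per the labels' protocols. The program behind the RPKM values, its annotation and whether it used strand: not given in the sources used here, so overlapping genes cannot be told apart.

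Symbols came from a RefSeq gene table of GRCm38.p6, used for names, which matched 27789 transcripts; the other 641 stayed under their accession. For each gene the transcript with the highest mean stood for it. RPKM values are not counts, so limma 3.58.1 in R 4.3.3, with trend and group as the only term, was run on log2(RPKM + 1) after a filter of 0.1 RPKM in at least 3 libraries, and p-values were adjusted over all 13829 genes by Benjamini-Hochberg. The fit was also run on simulated data in which few genes changed, equally up and down. The data here differ in both respects, so that run does not vouch for these calls. Library totals came from the steps of low values at the lengths of GENCODE M21 transcripts, where between 55.8% and 57.8% of values were whole reads within 0.03, against a median of at most 3.35% over other totals. The totals may be of reads or of pairs.

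The genes and the 12 lists beside them (169 of 174 entries matched, the genes described included) were chosen with earlier results of these data known. Named list genes are at most 3 called genes per list and direction with the largest change, where the higher group's mean reached 1 RPKM, and some of them are only counted in the text. Acot3 to Acot6, Acot10, Ucp1, Elovl3, Prdm16, Ppargc1a and Dio2 were added after their values were seen. Same-numbered DMSO and 611 libraries deviated together from their group means across genes (correlations 0.30, 0.30 and 0.18), so cultures of the same number may be paired. The main fit did not use the numbers, and the replicate block was run as an alternative. Alternatives were another pseudocount, other filters, median-of-ratios scaling, no trend, all or summed transcripts, the replicate block and each culture left out.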

Additional observations from a re-analysis of the deposited data

How the results depend on the processing

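The calls of Acsl1, Acsl5, Acot1, Acot2 and Acot13 kept their direction and their side of the threshold in all 15 alternatives: another pseudocount, no filter, a stricter filter, median-of-ratios scaling, no trend, all transcripts, summed transcripts, the replicate block, the block with scaling (added after seeing the data) and each culture left out. No direction of any of the 9 genes reversed. Of the 10 genes, 2 were called higher, and 1 with a filter of 1 RPKM, which leaves Acot11 out, 1 with scaling, 1 with the replicate block and 1 with both; leaving out single cultures gave 1 to 2 higher and 4 to 5 lower. Pairing by the replicate block changed no call of the 10 other than that of Acot11. Scaling added Acsl4 and Acot9, for 7 lower, and Acsl3 lost its call without DMSO replicate 2 or 611 replicate 3. Over all genes 2451 were lower, and 3962 with median-of-ratios scaling and 4327 with the block and scaling together. With factors taken from the data, the scaling divided the 611 libraries by 1.043 to 1.066 and the DMSO libraries by 0.9414 to 0.9631. Higher calls were 5758, and 3941 and 4286 under the same settings. Leaving out single cultures gave 5171 to 5533 higher and 2165 to 2327 lower. Of 312 list counts 310 stayed within 1.5 times; with scaling, higher calls among other thioesterases went from 3 to 0 and lower calls among smooth muscle markers from 0 to 1. Depth limits Acsl6 and Acot11, which rest on few reads.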
